A study of Homo sapiens with 9 samples.

Results

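The transcripts described here are 10 genes of the NRF2 pathway in SW480 cells, out of 41041 genes in the expression table. They are the transcription factors NFE2L2 (the gene for NRF2, ENSG00000116044) and NFE2L1 (ENSG00000082641), the NRF2 inhibitor KEAP1 (ENSG00000079999), the autophagy receptor SQSTM1 (ENSG00000161011) that competes for KEAP1, and the repressor BACH1 (ENSG00000156273). The others are the small MAF partners MAFF (ENSG00000185022), MAFG (ENSG00000197063) and MAFK (ENSG00000198517) and the induced genes OSGIN1 (ENSG00000140961) and NQO1 (ENSG00000181019). They were chosen by name, for their place in the pathway, with earlier results of these data known. Each symbol matched 1 row of the table. All 10 had a mean of at least 1 FPKM (fragments per kilobase of transcript, scaled to the size of the library) over the 9 libraries, the filter of the fit used throughout. OSGIN1 alone was dropped by an alternative filter of 5 FPKM.

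SW480 is an established line from a colon adenocarcinoma, and each group was 3 libraries of that line, described by the series as biological replicates. All cells were held at 1% O2 for 48 h. The control group received no drug, the SFN group received 25 µM sulforaphane, and the SFN+5-FU group received sulforaphane with 5-fluorouracil at doses that the labels do not give. Sulforaphane is an isothiocyanate from cruciferous vegetables, and 5-fluorouracil is a pyrimidine analog used against colorectal cancer. The 9 libraries include no normoxic group and no group with 5-fluorouracil alone. The effect of 5-fluorouracil is therefore seen only together with sulforaphane, and a different sulforaphane dose in the combination cannot be told apart from it. Because the samples are bulk cultures, fewer cells of a type and less RNA per cell cannot be told apart.

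NRF2 is a basic leucine zipper protein of the CNC family that binds antioxidant response elements as a dimer with a small MAF protein. In resting cells KEAP1 holds NRF2 and presents it to a CUL3 ubiquitin ligase, and electrophiles such as sulforaphane modify cysteines of KEAP1 so that NRF2 escapes degradation. BACH1 occupies the same elements with the same small MAF partners and represses, NFE2L1 activates proteasome and antioxidant genes, and SQSTM1 carries KEAP1 into autophagosomes. Several of these genes are themselves known NRF2 targets, and NQO1, which reduces quinones, is the target most used as a readout. The values here are transcript levels and do not measure the amount of any protein.

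The stretches below lie next to start sites and show where element-like letters lie in members that rose. The motif TGACNNNGC, the core of the antioxidant response element, and TGANTCAGC, its AP-1-like form, were searched on both strands of the RefSeq promoter windows (build GRCh38.p14, 250 bases before to 50 after each start). A sequence that fits both motifs would count for each. Capitals mark the match, and each sequence is read along the gene's own strand.
OSGIN1 chr16:83952990-83953221 (+): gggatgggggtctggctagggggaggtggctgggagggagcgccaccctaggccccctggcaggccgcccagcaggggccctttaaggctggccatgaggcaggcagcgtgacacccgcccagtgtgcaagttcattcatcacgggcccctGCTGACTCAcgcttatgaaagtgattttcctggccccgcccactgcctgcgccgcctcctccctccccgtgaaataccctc
KEAP1 chr19:10502807-10502835 (-): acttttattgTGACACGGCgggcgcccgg
KEAP1 chr19:10502784-10502812 (-): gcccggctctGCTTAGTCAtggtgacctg
MAFF chr22:38201862-38201890 (+): cttccaggggGCGGGGTCAtacgggggcg

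The OSGIN1 match reads TGAGTCAGC on the opposite strand and lies 99 to 91 bases before the start, outside annotated exons. KEAP1 holds TGACACGGC 54 to 46 bases before 1 of its starts and TGACTAAGC, on the opposite strand, 31 to 23 bases before it. The MAFF match, TGACCCCGC on the opposite strand, lies 122 to 114 bases before 1 of its starts. The KEAP1 and MAFF matches fall in annotated exons, so they are shown with few flanking bases. RefSeq held 17 windows for 9 of the 10 members, and MAFK had no entry. TGACNNNGC occurred in 2 of those 9 genes and in 16.1% of the 27305 genes with a window. TGANTCAGC occurred in 1 of the 9 and in 1.66% of genes. Members had more windows per gene than all genes did, with 35116 windows in total. Counted by window, TGACNNNGC occurred in 2 of the 17 against 13.3% of all windows, and TGANTCAGC in 1 of the 17 against 1.36%. A match describes letters only, and its absence says only that these letters are not in this window.

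SFN replicate 2 stood apart from its group. On the log2(FPKM + 1) scale over the 12662 tested genes it correlated at r = 0.9932, 0.9926 and 0.9931 with the 3 SFN+5-FU libraries, but at 0.9626 and 0.9676 with SFN replicates 1 and 3, which correlated at 0.9896 with each other. For all 10 members it lay nearer to the SFN+5-FU mean than to the mean of the other SFN libraries, and for 7 of them it lay within the SFN+5-FU range. It stayed in the SFN group as its label says. Its effect is given below as the values without it. The fit across all genes was limma on log2(FPKM + 1) with Benjamini-Hochberg adjustment, and a gene was called at an adjusted p under 0.05.

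Summed FPKM ran from 259184 to 272235 per library. The mitochondrially encoded share was 25.22 to 26.18% in control, 20.04 to 23.85% in SFN and 17.31 to 19.73% in SFN+5-FU, and a fit with those genes left out was among the alternatives. Of 12 epithelial and colorectal markers, 10 were tested, and 6 fell with SFN and 7 with SFN+5-FU, where 22.5% and 28.0% of all tested genes were called lower. The other 2, CDX1 and CEACAM5, reached at most 0.4 and 0.15 FPKM, while EPCAM stood at 114 to 144 FPKM in every library. The 12 markers together summed to 2730 to 2754 FPKM in control, 1903 to 2516 in SFN and 1836 to 1861 in SFN+5-FU. The 10 fibroblast and endothelial markers summed to at most 2.98 FPKM in any library, with CDH5 at 0 in all 9. Of 12 immune markers 11 were in the table, PTPRC was at 0 in all 9 libraries, and the sums were 6.58 to 6.71 FPKM in control, 6.48 to 11.8 in SFN and 8.75 to 12.2 in SFN+5-FU. CD68, a lysosomal glycoprotein singled out after its values were seen, reached 8.96 FPKM, the highest of these immune and stromal markers. It rose by 1.59 with SFN and 2.42 with SFN+5-FU on the log2 scale, while the other tested immune markers, CD14 and LYZ, fell by 0.40 and 0.76 with SFN+5-FU and were not called with SFN. The part of these marker levels in the results below was not tested.

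In control cells the 10 members ran, from the highest level per length to the lowest, SQSTM1, NQO1, NFE2L1, MAFG, MAFK, KEAP1, MAFF, NFE2L2, BACH1 and OSGIN1. Mean control levels ran from 96.5 FPKM for SQSTM1 down to 2.95 FPKM for OSGIN1. The ranges of the neighbours MAFK and KEAP1 overlapped in control, as did those of NFE2L2 and BACH1, and the other neighbours in that order were separated in every control library. In SFN+5-FU the order changed: KEAP1, at a mean of 35.2 FPKM, stood above MAFG at 24.2 FPKM with no overlap, and OSGIN1, at 6.10 FPKM, stood above BACH1 at 4.96 FPKM with ranges that met at 5.31 FPKM. MAFF and MAFK there had equal means of 20.8 FPKM and overlapping ranges.

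**Figure D1:**
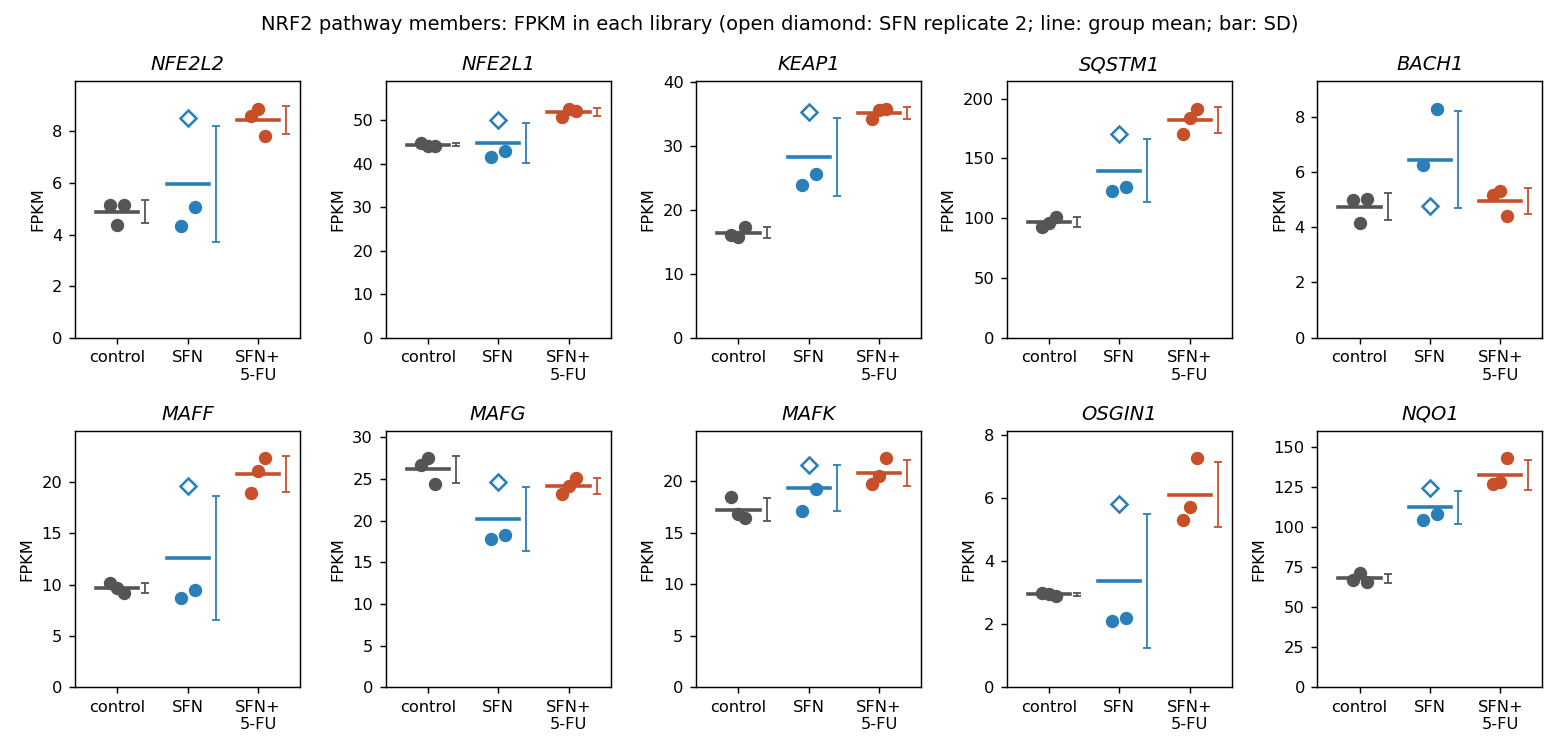
FPKM of each member (vertical axis, from 0) in the 3 libraries of each group (horizontal axis), with the group mean as a line and the SD as a bar at its side. SFN replicate 2, the open diamond, lies beside the SFN+5-FU points for all 10 genes, and KEAP1, SQSTM1 and NQO1 lie above control in all 6 treated libraries.

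With sulforaphane alone, 3 of the 10 members rose and 1 fell. KEAP1, SQSTM1 and NQO1 were higher than control in all 3 libraries, at 1.73, 1.45 and 1.65 times the control mean FPKM, and MAFG was lower at 0.773 times. In the mean of SFN replicates 1 and 3 alone, these 4 stood at 1.51, 1.29, 1.56 and 0.688 times. The transcript of NRF2 itself did not pass the test. Over all 12662 tested genes, limma called 27.5% higher and 22.5% lower in SFN than in control, so a call in either direction was common. The median log2 difference was 0.23 over the members and 0.053 over all tested genes. Without SFN replicate 2, where 30.0% of genes were called higher and 26.9% lower, BACH1 joined the members that rose and OSGIN1 joined those that fell, giving 4 and 2, and the members' median was 0.01 against 0.023 over all genes.

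With sulforaphane and 5-fluorouracil together, 8 of the 10 members rose and none fell. KEAP1, MAFF and OSGIN1 were at 2.15, 2.14 and 2.07 times the control mean, NQO1 at 1.95, SQSTM1 at 1.89, NFE2L2 at 1.73, MAFK at 1.21 and NFE2L1 at 1.17 times. BACH1 and MAFG did not pass the test. In limma, 38.3% of tested genes were called higher and 28.0% lower in this comparison, and the median log2 difference was 0.76 over the members and 0.097 over all genes. This comparison and that of SFN use the same 3 control libraries, so their values are set side by side and no agreement between them is counted.

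Between SFN+5-FU and SFN, no member was called by limma with all 9 libraries weighted equally, although 8 of 10 had an unadjusted p under 0.05. At the adjusted threshold the background was 0.00% called higher and 0.00790% lower, which is 1 gene. The share of all tested genes at the unadjusted threshold is not given here, so the 8 have no background to be read against. Without SFN replicate 2 limma called 8 members higher and 1 lower, against 29.8% of all genes higher and 21.4% lower. MAFK alone was not called, with an adjusted p of 0.0676. A fit that kept all 9 libraries but gave each an estimated weight called 9 members, 8 higher and 1 lower. It also called 4225 of the 12662 tested genes higher and 3207 lower. The calls in this comparison depend on whether SFN replicate 2 is kept and on whether libraries are weighted. That library was singled out in these same data as near to SFN+5-FU. Leaving it out therefore favours a difference between SFN+5-FU and SFN. The values below without it rest on 2 SFN libraries, and their p-values in this comparison are descriptive.

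**Figure D2:**
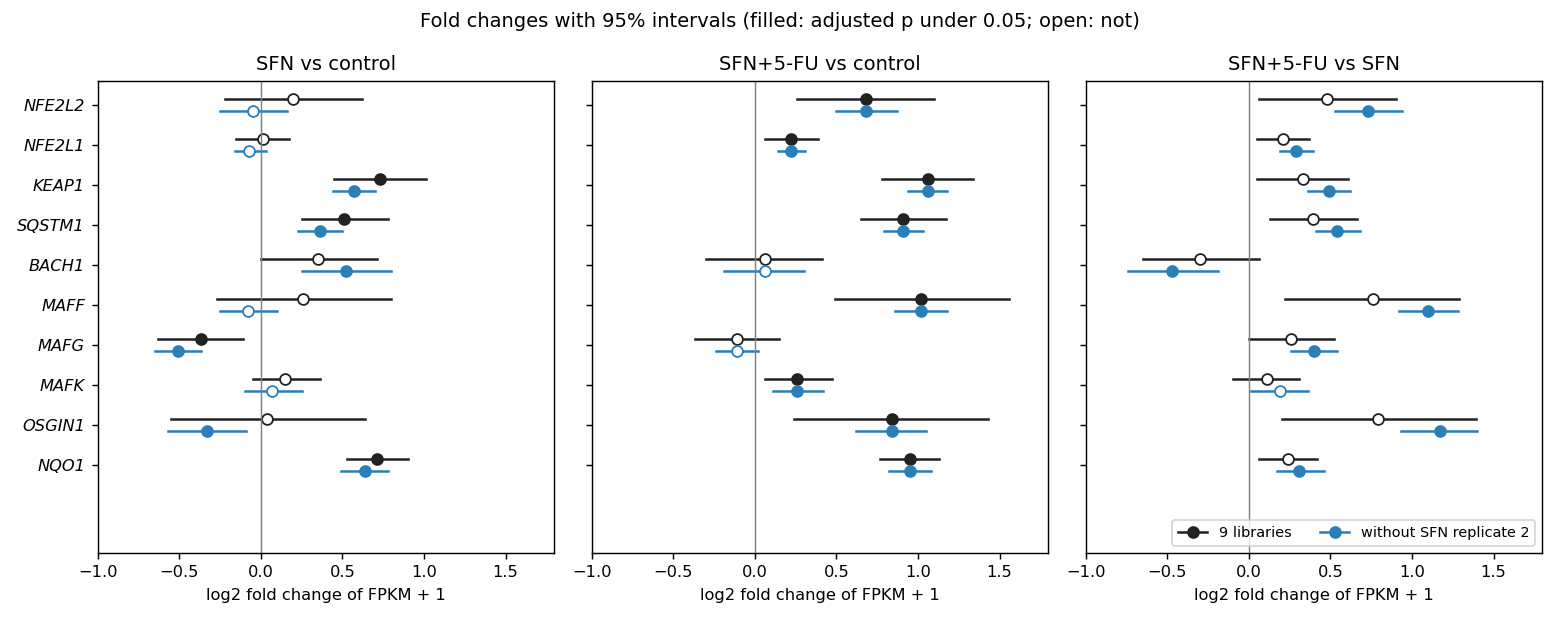
Log2 fold change of FPKM + 1 (horizontal axis) for each member in the 3 comparisons, with 95% intervals from limma, for all 9 libraries (black) and without SFN replicate 2 (blue). Filled points are called at an adjusted p under 0.05, and in SFN+5-FU vs SFN the black points are all open while 9 of the 10 blue points are filled.

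NFE2L2 encodes NRF2. It stood at 5.15, 4.36 and 5.16 FPKM in control replicates 1, 2 and 3, at 4.32, 8.54 and 5.07 FPKM in the SFN libraries, and at 8.60, 8.89 and 7.84 FPKM in SFN+5-FU. All 3 combination libraries were above every control, whereas SFN replicates 1 and 3 lay at or near control levels and SFN replicate 2 lay among the combination libraries. NFE2L2 rose with SFN+5-FU by 0.68 on the log2(FPKM + 1) scale (SE 0.185, limma adjusted p = 0.00962), and was called in all 22 fits run, although a pseudocount of 5 gave 0.443. The difference of SFN from control was 0.20 (95% interval -0.22 to 0.62, limma adjusted p = 0.392), and -0.05 without SFN replicate 2. SFN+5-FU exceeded SFN by 0.48 (limma adjusted p = 0.136), and by 0.73 without that replicate (adjusted p = 0.000263). Exons of AGPS, an enzyme of ether lipid synthesis, overlap NFE2L2 on the opposite strand. AGPS ran from 3.57 to 4.08 FPKM in control, 4.61 to 5.38 in SFN and 4.43 to 4.82 in SFN+5-FU. The libraries were made with a strand-marking method, per the labels, but whether the counting used strand is not given in the sources used here.

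NFE2L1 encodes NRF1, a CNC factor held in the endoplasmic reticulum until it is processed. Its levels were 44.75, 44.09 and 44.18 FPKM in control, 41.59, 50.08 and 42.88 FPKM in SFN and 50.80, 52.71 and 52.17 FPKM in SFN+5-FU. The 3 combination libraries exceeded all others, and SFN replicates 1 and 3 fell below every control. NFE2L1 rose with SFN+5-FU by 0.22 (SE 0.0725, limma adjusted p = 0.0223), the smallest of the 8 called increases. This call was lost under each other scaling: 0.112 with median-of-ratios scaling (adjusted p = 0.135), 0.081 with quantile normalization (adjusted p = 0.305) and 0.119 with mitochondrial genes left out (adjusted p = 0.138). It was also lost on leaving out control replicate 1, 2 or 3 or SFN+5-FU replicate 2 or 3, with limma adjusted p from 0.0544 to 0.0689. SFN differed from control by 0.01 (95% interval -0.15 to 0.17). Without SFN replicate 2 the excess of SFN+5-FU over SFN was 0.29 (limma adjusted p = 0.0006).

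KEAP1 is the substrate adaptor that delivers NRF2 to the CUL3 ligase. It measured 16.11, 15.65 and 17.31 FPKM in control, 23.85, 35.18 and 25.64 FPKM in SFN and 34.08, 35.59 and 35.79 FPKM in SFN+5-FU. All 6 treated libraries were above all controls, and SFN replicate 2 sat inside the combination range. KEAP1 rose by 0.73 with SFN (SE 0.124, limma adjusted p = 0.00127) and by 1.06 with SFN+5-FU (SE 0.124, limma adjusted p = 0.000108). When SFN replicate 2 was left out, the rise with SFN was 0.57 and SFN+5-FU exceeded SFN by 0.49 (limma adjusted p = 0.000218), against 0.33 with all libraries (adjusted p = 0.135). KEAP1 was called in all 22 fits in both comparisons with control.

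SQSTM1, also called p62, is a cargo receptor of selective autophagy with a KEAP1-binding motif. Control libraries held 92.70, 95.66 and 101.12 FPKM, SFN libraries 122.74, 170.18 and 126.23 FPKM, and SFN+5-FU libraries 170.55, 184.01 and 191.73 FPKM. The 3 groups did not overlap, although SFN replicate 2 lay just below the lowest combination library. It rose by 0.51 with SFN (SE 0.116, limma adjusted p = 0.00568) and by 0.91 with SFN+5-FU (SE 0.116, adjusted p = 0.000171), in all 22 fits. Without SFN replicate 2 the rise with SFN was 0.36 (limma adjusted p = 0.000937). The excess of SFN+5-FU over SFN was 0.39 (limma adjusted p = 0.134), and 0.54 without SFN replicate 2 (adjusted p = 0.000157). MRNIP, a DNA repair gene whose exons overlap SQSTM1 on the opposite strand, stayed at or below 8.65 FPKM in every library, from 7.67 to 8.65 in control, 4.96 to 6.78 in SFN and 5.88 to 7.33 in SFN+5-FU.

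BACH1 is the heme-binding repressor that competes with NRF2 for small MAF partners and for elements. Its 9 values were 5.00, 4.17 and 5.04 FPKM in control, 6.27, 4.78 and 8.30 FPKM in SFN and 5.16, 5.31 and 4.42 FPKM in SFN+5-FU. SFN replicates 1 and 3 were the 2 highest libraries, and SFN replicate 2 fell inside the ranges of both other groups. With all libraries, BACH1 in SFN exceeded control by 0.35 (SE 0.157, 95% interval -0.00 to 0.71), which limma did not call (adjusted p = 0.088), and with library weights it rose by 0.632 (limma adjusted p = 0.000216). Leaving out SFN replicate 2, it rose by 0.52 (limma adjusted p = 0.00535), and it was then lower in SFN+5-FU than in SFN by a log2 difference of -0.47 (adjusted p = 0.011). SFN+5-FU and control differed by 0.06 (95% interval -0.30 to 0.41). It was the 1 member whose highest treated values were in SFN replicates 1 and 3.

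MAFF, MAFG and MAFK are small MAF proteins, which lack an activation domain and serve as DNA-binding partners of NRF2, NFE2L1 and BACH1 alike. MAFF measured 10.21, 9.66 and 9.23 FPKM in control, 8.75, 19.57 and 9.53 FPKM in SFN and 18.88, 21.10 and 22.31 FPKM in SFN+5-FU. SFN replicates 1 and 3 lay near control, and the other SFN library lay among the combination libraries. MAFF rose with SFN+5-FU by 1.02 (SE 0.237, limma adjusted p = 0.0043) in all 22 fits. With SFN the difference was 0.26 (95% interval -0.27 to 0.80), and -0.08 without SFN replicate 2. SFN+5-FU exceeded SFN by 0.76 (limma adjusted p = 0.134), or by 1.10 without that library (adjusted p = 2.4e-05).

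MAFG was the member that fell with SFN. Its values were 26.64, 27.48 and 24.38 FPKM in control, 17.79, 24.63 and 18.23 FPKM in SFN and 23.15, 24.15 and 25.16 FPKM in SFN+5-FU. Replicates 1 and 3 of SFN were the lowest of the 9 libraries, and SFN replicate 2 was just above the lowest control. MAFG fell by 0.37 on the log2 scale with SFN (SE 0.114, limma adjusted p = 0.0238) and, leaving out SFN replicate 2, by 0.51 (adjusted p = 0.000174). This held in 15 of 22 fits. Correction for GC content and length gave -0.213 (limma adjusted p = 0.123). The adjusted p was 0.0592 with no filter on low genes, 0.0582 with only the 6 libraries compared, 0.071 without control replicate 1, 0.0803 without control replicate 2, 0.0681 without SFN replicate 1 and 0.0771 without SFN replicate 3. With SFN+5-FU the difference was -0.11 (95% interval -0.37 to 0.15, limma adjusted p = 0.414), and it reached -0.30 under quantile normalization (adjusted p = 0.0226). With SFN replicate 2 set aside, MAFG was higher in SFN+5-FU than in SFN by 0.40 (limma adjusted p = 0.000799).

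MAFK stood at 18.46, 16.79 and 16.39 FPKM in control, 17.11, 21.60 and 19.26 FPKM in SFN and 19.76, 20.50 and 22.21 FPKM in SFN+5-FU. The combination libraries were all above control, while the SFN range overlapped both. It rose with SFN+5-FU by 0.26 (SE 0.091, limma adjusted p = 0.0296), a call that held in 14 of 22 fits. It was lost with median-of-ratios scaling at 0.154, quantile normalization at 0.091 and mitochondrial genes left out at 0.161, with no filter on low genes (limma adjusted p = 0.0608), and on leaving out control replicate 2 or 3 or SFN+5-FU replicate 2 or 3. SFN differed from control by 0.15 (95% interval -0.05 to 0.36), and MAFK was called there with GC and length correction at 0.326 (limma adjusted p = 0.00769) and without SFN replicate 1 at 0.234 (adjusted p = 0.0466). TMEM184A, whose exons overlap MAFK on the opposite strand, ran from 4.20 to 4.72 FPKM in control, 3.74 to 6.42 in SFN and 5.87 to 6.26 in SFN+5-FU, with its highest value in SFN replicate 2.

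Together the small MAF transcripts summed to 55.3, 53.9 and 50.0 FPKM in control, 43.6, 65.8 and 47.0 FPKM in SFN and 61.8, 65.8 and 69.7 FPKM in SFN+5-FU. MAFG made up 48.2, 51.0 and 48.8% of that sum in control, 40.8, 37.4 and 38.8% in SFN and 37.5, 36.7 and 36.1% in SFN+5-FU. Every treated library was below every control, SFN replicate 2 included. The mean MAFG share was 49.3% ± 1.47 (SD, n = 3) in control, 39.0% ± 1.67 in SFN and 36.8% ± 0.68 in SFN+5-FU. Its share differed from control by -10.3 percentage points in SFN and -12.5 in SFN+5-FU, each with an exact two-sided permutation p of 0.1, the smallest that 3 against 3 allows (0.15 adjusted over 12 such tests). Leaving out SFN replicate 2 gave -9.53 points for SFN. The other shares were not tested. MAFF held 18.5, 17.9 and 18.5% in control and 30.6, 32.1 and 32.0% in SFN+5-FU, with SFN replicate 2 at 29.7% and SFN replicates 1 and 3 at 20.0 and 20.3%. MAFK held 39.2, 32.8 and 41.0% in the SFN libraries, 31.1 to 33.4% in control and 31.2 to 32.0% in SFN+5-FU, so that only SFN replicates 1 and 3 lay outside the control range on the high side.

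**Figure D3:**
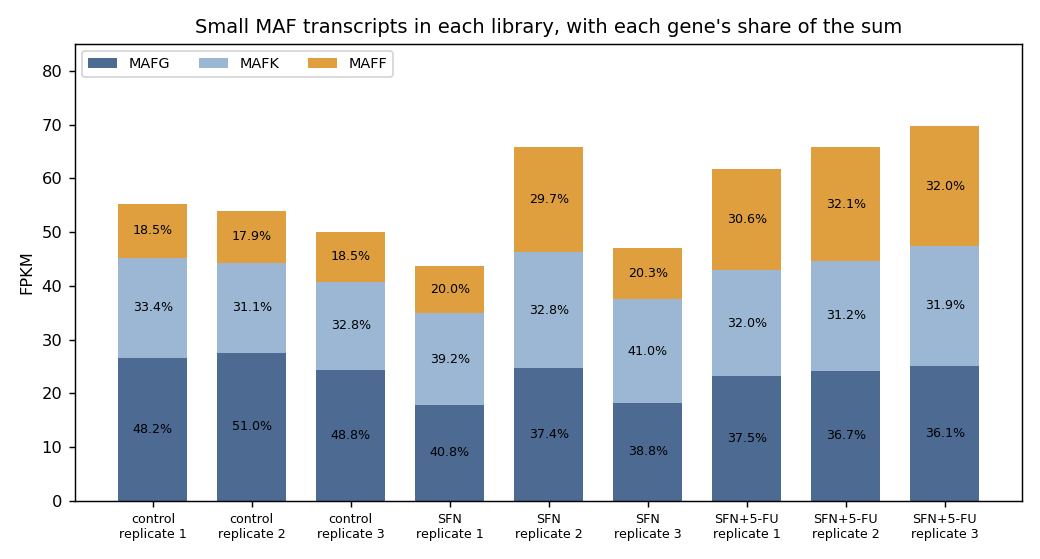
Stacked FPKM (vertical axis) of MAFG, MAFK and MAFF in each of the 9 libraries (horizontal axis), with each gene's percent of the sum printed in its block. MAFG takes 48.2 to 51.0% of the sum in control and 36.1 to 40.8% in the 6 treated libraries, and MAFF is largest in SFN replicate 2 and the SFN+5-FU libraries.

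OSGIN1, an oxidative stress-induced growth inhibitor and known NRF2 target, is the member whose promoter letters are shown above with TGAGTCAGC. It measured 3.00, 2.96 and 2.90 FPKM in control, 2.09, 5.81 and 2.20 FPKM in SFN and 5.31, 5.73 and 7.26 FPKM in SFN+5-FU. SFN replicates 1 and 3 lay below control, whereas SFN replicate 2 lay within the combination range, above every control. OSGIN1 rose with SFN+5-FU by 0.84 (SE 0.264, limma adjusted p = 0.0195), and by 0.477 with a pseudocount of 5. That call was lost with no filter on low genes (adjusted p = 0.056), without control replicate 3 (adjusted p = 0.0507) and without SFN+5-FU replicate 3 (limma adjusted p = 0.0699). With SFN the difference was 0.04 (95% interval -0.55 to 0.64), and without SFN replicate 2 OSGIN1 fell by 0.33 (limma adjusted p = 0.0248). In SFN+5-FU it exceeded SFN by 0.79 (limma adjusted p = 0.134) and, without that library, by 1.17 (adjusted p = 6.13e-05), the largest such difference among the members.

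NQO1, the flavoprotein quinone reductase, had the smallest relative spread between SFN libraries of the 4 genes called with SFN. It measured 66.96, 71.28 and 65.48 FPKM in control, 104.30, 124.10 and 108.10 FPKM in SFN and 126.58, 127.73 and 142.81 FPKM in SFN+5-FU. The 3 groups were in order with no overlap, and SFN replicate 2 lay between the other SFN libraries and the combination. NQO1 rose by 0.71 with SFN (SE 0.081, limma adjusted p = 0.000166) and by 0.95 with SFN+5-FU (SE 0.081, adjusted p = 2.32e-05), in all 22 fits. The mean was 44.3 FPKM higher in SFN and 64.5 FPKM higher in SFN+5-FU than in control, and 20.2 FPKM higher in SFN+5-FU than in SFN. Each of these had an exact two-sided permutation p of 0.1 (0.15 adjusted). Leaving out SFN replicate 2, NQO1 in SFN was 38.3 FPKM above control and 26.2 FPKM below SFN+5-FU. On the log2 scale SFN+5-FU exceeded SFN by 0.24 (limma adjusted p = 0.134), and by 0.31 without SFN replicate 2 (adjusted p = 0.00351).

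The NRF2 transcript was set against its antagonists BACH1 and KEAP1 as ratios. With 3 libraries against 3, no exact p could fall under 0.1. NFE2L2 to BACH1, as a ratio of FPKM values, was 1.03, 1.05 and 1.02 in control, 0.689, 1.79 and 0.611 in SFN and 1.67, 1.67 and 1.77 in SFN+5-FU. SFN replicates 1 and 3 had the lowest ratios of the 9, and SFN replicate 2 the highest. The mean was 1.03 ± 0.0112 (SD, n = 3) in control and 1.70 ± 0.0598 in SFN+5-FU, a difference of 0.672 with an exact two-sided permutation p of 0.1 (0.15 adjusted). In SFN the mean of all 3 libraries was 1.03 ± 0.657, as in control but with a far wider spread. For SFN against control the exact p was 1.0, and the mean of SFN replicates 1 and 3 alone was 0.65. SFN+5-FU minus SFN was 0.676 with all libraries (exact permutation p = 0.4, adjusted 0.436). With the mean of SFN replicates 1 and 3, SFN minus control was -0.383 and SFN+5-FU minus SFN was 1.05. Each of these 2 had an exact permutation p of 0.1, the smallest that 2 against 3 libraries allow.

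The NFE2L2 to KEAP1 ratio was 0.32, 0.279 and 0.298 in control, 0.181, 0.243 and 0.198 in SFN and 0.252, 0.25 and 0.219 in SFN+5-FU. All treated libraries were below all controls. The mean fell short of control by a difference of -0.0916 in SFN and -0.0584 in SFN+5-FU, each with an exact permutation p of 0.1 (0.15 adjusted), and by -0.109 in SFN without SFN replicate 2. SFN and SFN+5-FU overlapped, with a difference of 0.0332 (exact permutation p = 0.2, adjusted 0.24). That difference was 0.0202 without SFN replicate 1 and 0.051 without SFN replicate 2.

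**Figure D4:**
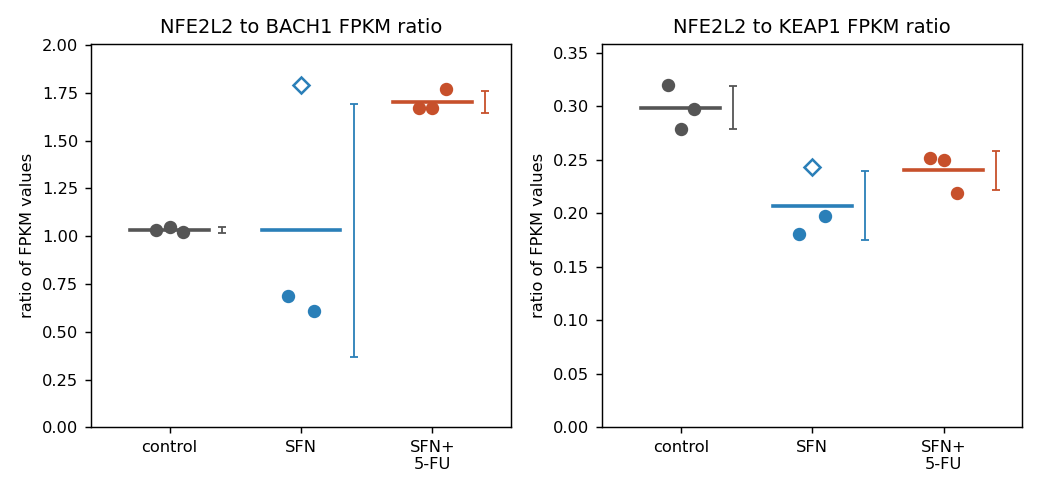
Ratio of NFE2L2 to BACH1 FPKM (left) and of NFE2L2 to KEAP1 FPKM (right) in each library (points), with group means as lines and SDs as bars. The open diamond is SFN replicate 2, which has the highest ratio to BACH1 of all 9 libraries at 1.79, and in the right panel every treated library is below control.

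Across the 9 libraries, which are 3 groups of 3 and so share their group differences, the members fell into patterns that are given as descriptions. On the log2(FPKM + 1) scale KEAP1 was most like SQSTM1 (Pearson r = 0.987), NQO1 most like KEAP1 (0.974), NFE2L2 most like MAFF (0.965), NFE2L1 and MAFF most like each other (0.982), OSGIN1 most like NFE2L1 (0.978) and MAFK most like MAFF (0.884). MAFG and BACH1 stood outside these. MAFG reached at most 0.494, with OSGIN1, and BACH1 at most 0.147, with NQO1, while BACH1 and MAFG ran opposite to each other at -0.884. Among named genes of at least 5 FPKM on average, the 3 most like NFE2L2 were FGFR1OP2 (0.993), ZNF45 (0.993) and SERINC1 (0.992). The 3 most like NQO1 were UROD (0.998), a heme synthesis enzyme, NXT1 (0.996), an RNA export factor, and FTL (0.996), the ferritin light chain. FTL ran from 1623 to 1649 FPKM in control, 2979 to 4068 in SFN and 4121 to 4726 in SFN+5-FU.

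The rest of the pathway was followed through lists of named genes, whose counts read against 27.5% of all tested genes called higher and 22.5% lower with SFN, and 38.3% and 28.0% with SFN+5-FU. Without SFN replicate 2 the shares were 30.0% and 26.9% with SFN, and 29.8% and 21.4% for SFN+5-FU against SFN. Of 10 genes listed for the KEAP1 ligase and its partners, 5 rose and 2 fell with SFN (median log2 difference 0.17). The counts were again 5 and 2 with SFN+5-FU (median 0.14). With SFN, 6 rose and 2 fell when SFN replicate 2 was left out, but only 1 rose without control replicate 2, 3 without control replicate 1 or SFN replicate 3, and 2 with mitochondrial genes left out or with only the 6 libraries compared. PGAM5, a mitochondrial phosphatase that tethers KEAP1, rose from 14.2 ± 0.455 FPKM to 23.8 ± 1.29 with SFN (log2 0.70, limma adjusted p = 5.48e-05) and 25.3 ± 1.01 with SFN+5-FU (0.79). DCAF11, a substrate receptor of another ligase, fell from 8.34 ± 0.443 to 5.32 ± 0.427 FPKM with SFN (log2 -0.56), and IKBKB, a kinase that KEAP1 can bind, fell by 0.77 with SFN+5-FU to 0.997 FPKM. On leaving out SFN replicate 2, IKBKB and MCM3, a replicative helicase subunit, were lower in SFN+5-FU than in SFN (log2 -0.34 and -0.32), among 3 that were lower and none higher.

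Of 13 genes for KEAP1-independent turnover and coactivators of NRF2, 3 rose and 2 fell with SFN (median 0.04; 3 and 3 without SFN replicate 2, median -0.07), and 5 rose and 4 fell with SFN+5-FU (median 0.13). RXRA, a nuclear receptor that binds NRF2 and represses it, fell from 6.84 ± 0.41 to 3.76 ± 0.408 FPKM with SFN (log2 -0.72, limma adjusted p = 0.000179) and to 3.35 ± 0.20 FPKM with SFN+5-FU (-0.85). CHD6, a chromatin remodeller, fell by 0.56 and by 0.81. When SFN replicate 2 was left out, the ubiquitin ligases TRIM21 and SYVN1 were higher in SFN+5-FU than in SFN, by 0.62 and 0.59.

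The CNC and large MAF factors outside the members numbered 7, of which 4 passed the filter. None rose, 2 fell with SFN and 3 with SFN+5-FU, and the medians were -0.68 and -0.88. NFE2, the founding CNC factor of the erythroid lineage, measured 18.27, 19.27 and 16.80 FPKM in control, 11.29, 4.03 and 6.87 in SFN and 3.73, 2.92 and 4.0 in SFN+5-FU. All treated libraries were below all controls, with log2 differences of -1.28 (limma adjusted p = 0.00355, or -0.96 without SFN replicate 2) and -2.08 (adjusted p = 0.000163), and -1.12 between SFN+5-FU and SFN without SFN replicate 2. MAFA was higher in SFN+5-FU than in SFN by 0.51 without SFN replicate 2 (adjusted p = 0.0175), at under 2 FPKM in every library.

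NFE2L1 is cut out of the endoplasmic reticulum membrane by a set of extraction, deglycosylation and protease factors. A wider list for NFE2L1 processing, not all of it such factors, had 11 tested genes. Of these, 3 rose and 1 fell with SFN (median 0.03) and 5 rose and 2 fell with SFN+5-FU (median 0.06). The number that fell with SFN was 3 without SFN replicate 2 and 2 without SFN replicate 1, and with SFN+5-FU it was 1 without SFN+5-FU replicate 3. UFD1, a cofactor of the extraction ATPase, rose from 7.49 ± 0.61 to 10.8 ± 1.5 and 13.2 ± 0.26 FPKM (log2 0.47 and 0.74). HCFC1, a transcriptional cofactor, rose by 0.40 with SFN, and OGT, the O-GlcNAc transferase, fell from 41.0 ± 0.633 to 25.1 ± 1.6 FPKM with SFN+5-FU (-0.69) and, without SFN replicate 2, was lower than in SFN (-0.40). Of 6 genes for BACH1 turnover and heme, 3 rose and 2 fell with SFN (median 0.18, and 0.06 without SFN replicate 2 at equal counts) and 4 rose and 2 fell with SFN+5-FU (median 0.41), where 1 fell on leaving out any control or SFN+5-FU replicate 2 or 3. ALAS1, which starts heme synthesis, rose from 44.1 ± 0.352 to 71.1 ± 6.87 and 82.4 ± 0.591 FPKM (log2 0.67 and 0.89), FBXL17, a ligase adaptor for BACH1, fell by 0.63 with SFN, and HMOX2, the constitutive heme oxygenase, rose by 0.76 with SFN+5-FU.

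HMOX1, the inducible heme oxygenase that BACH1 represses, measured 7.49, 7.5 and 6.74 FPKM in control, 6.58, 10.54 and 6.76 in SFN and 9.98, 9.78 and 10.88 in SFN+5-FU. SFN replicates 1 and 3 lay near the lowest control, and SFN replicate 2 lay in the combination range. With all 9 libraries HMOX1 differed from control by 0.09 with SFN (limma adjusted p = 0.616) and rose by 0.44 with SFN+5-FU (adjusted p = 0.0235). Leaving out SFN replicate 2, HMOX1 was higher in SFN+5-FU than in SFN by 0.55 (limma adjusted p = 0.000267).

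Of 53 other known NRF2 targets, 52 were in the table and 37 passed the filter. With SFN 11 rose and 9 fell (median 0.09, against 0.053 over all genes), or 12 and 11 without SFN replicate 2 (0.03, against 0.023). With SFN+5-FU 19 rose and 10 fell (0.28, against 0.097), or 15 and 6 without SFN+5-FU replicate 3. TXNRD1, the cytosolic thioredoxin reductase, rose from 25.1 ± 1.96 FPKM to 63.1 ± 15.7 with SFN (log2 1.27, limma adjusted p = 0.000242) and 79.6 ± 2.16 with SFN+5-FU (1.63, adjusted p = 4.1e-05). FTL rose by 1.03 and 1.41, and TXN, the thioredoxin that TXNRD1 reduces, rose from 207 ± 14.2 to 397 ± 14.0 FPKM with SFN (0.94).  Genes that fell included IDH1, an NADPH-producing dehydrogenase, from 42.8 ± 1.5 to 11.6 ± 1.31 FPKM with SFN and 10.7 ± 0.355 with SFN+5-FU (log2 -1.80 and -1.90), PIR, an iron-binding nuclear protein, by 0.94 with SFN, and LRP8, a lipoprotein receptor, by 0.73 and 1.16. In SFN without SFN replicate 2 the values were 1.11 for TXNRD1, 0.89 for FTL, 0.91 for TXN, -1.76 for IDH1 and -0.54 for LRP8.

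GCLM, the modifier subunit of the enzyme that starts glutathione synthesis, measured 6.20, 5.44 and 6.97 FPKM in control, 6.78, 15.02 and 8.54 in SFN and 14.84, 16.15 and 15.14 in SFN+5-FU. ABCC1, a drug and glutathione-conjugate exporter, measured 11.28, 11.90 and 10.89 FPKM in control, 11.81, 4.99 and 11.34 in SFN and 5.19, 4.72 and 4.51 in SFN+5-FU. Both separated SFN replicate 2 and the combination from the other 5 libraries, GCLM upward and ABCC1 downward. With SFN+5-FU, GCLM rose by 1.19 (limma adjusted p = 0.00129) and ABCC1 fell by 1.09 (adjusted p = 0.00364). With SFN replicate 2 set aside, 29.8% of all tested genes were called higher and 21.4% lower in SFN+5-FU than in SFN. In that fit 18 of the 37 tested targets were higher and 3 lower (median 0.17, against 0.048 over all genes). They included ABHD4, a lipase, at 1.11, GCLM at 0.93 and TRIM16L at 0.63, and ABCC1 at -1.12, LRP8 at -0.62 and TKT, a transketolase, at -0.30. ABHD4 also fell by 0.88 from control to SFN when SFN replicate 2 was left out. With all 9 libraries that difference was -0.53 and was not called (limma adjusted p = 0.108).

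Of 12 other quinone and NAD(P)H-dependent reductases and quinone-cycle genes, 4 rose and 2 fell with SFN (median 0.12; 4 and 3 without SFN replicate 2, 0.06) and 7 rose and 2 fell with SFN+5-FU (0.20). With SFN these became 2 and 1 without control replicate 1, 2 and 2 without control replicate 2, 3 and 1 without control replicate 3 and 4 and 1 without SFN replicate 3, and with SFN+5-FU 4 and 2 without control replicate 1. CYB5R3, a cytochrome b5 reductase, fell by 0.37 with SFN. Its relative CYB5R1 rose from 4.40 ± 0.318 to 7.23 ± 0.836 FPKM with SFN+5-FU (0.61), and was higher there than in SFN by 0.72 without SFN replicate 2, as was PTGR1, an alkenal reductase, by 0.44. Of 17 tested autophagy receptors and partners of SQSTM1, 1 rose and 5 fell with SFN (median -0.02; 1 and 6 without SFN replicate 2, -0.14) and 6 rose and 4 fell with SFN+5-FU (0.16). With SFN the number that rose was 0 without any 1 control or SFN+5-FU replicate 3 and 2 without SFN replicate 1, and library weights gave 3 and 7. With SFN+5-FU it was 2 without control replicate 1 and 3 without control replicate 2 or SFN+5-FU replicate 1 or 2. ULK1, the kinase that starts autophagy, fell from 6.21 ± 0.278 to 2.75 ± 0.448 and 2.81 ± 0.435 FPKM (log2 -0.95 and -0.93), and PRKCZ, an atypical protein kinase C, fell by 0.51 with SFN. MAP1LC3B, the autophagosome protein that SQSTM1 binds, rose from 24.9 ± 1.44 to 45.7 ± 2.62 FPKM with SFN+5-FU (0.85). On leaving out SFN replicate 2, it and its relative GABARAPL1 were higher in SFN+5-FU than in SFN, by 0.63 and 0.95.

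In SFN+5-FU against SFN with all 9 libraries weighted equally, no gene of any of these lists was called by limma, and the most abundant tested gene of each is given in its place. MCM3 differed by -0.23, CUL1 by -0.16, NFE2L3 by -0.33, VCP by 0.05, ALAS1 by 0.22, FTL by 0.37, POR by -0.06 and GABARAP by 0.01, with limma adjusted p from 0.134 to 0.92. At an unadjusted p under 0.05 were 18 of the 37 NRF2 targets, 5 of the 17 autophagy genes and 4 of the 13 genes for turnover and coactivators. The other lists had 1 of 10 (KEAP1 ligase and partners), 2 of 4 (CNC and MAF factors) and 3 of 11 (NFE2L1 processing). There were also 3 of 6 for BACH1 turnover and heme and 3 of 12 reductases. The share of all tested genes under that threshold is not given here, so these counts are not read as a result about the lists.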

How the data were processed

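Poly(A) RNA of 9 SW480 cultures was sequenced as paired ends. FPKM values per Ensembl gene were made and deposited by the authors; fastp, StringTie and edgeR stand in the submitters' processing notes without versions, and the sources used here do not give the aligner or genome build. FPKM keeps no read counts, so the depth is unknown. Of 41041 gene IDs, 41002 matched the name table, 29784 with a symbol.

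The 12662 genes averaging at least 1 FPKM were fitted in 1 limma model (3.58.1, R 4.3.3, mean-variance trend) on log2(FPKM + 1), with 3 groups and 9 libraries. Fold changes on that scale understate changes of low genes. P-values were Benjamini-Hochberg adjusted over all tested genes and called under 0.05. Ratios, shares and NQO1 FPKM were compared by exact permutation tests. Members and lists were chosen with earlier results of these data known. The text names all members, and in each other list and comparison the 2 called genes of largest change (3 in each direction for NRF2 targets), or else the most abundant tested gene, plus the 3 genes most like NFE2L2 and NQO1 and the member most like each member; CD68 was added afterwards. A few genes that this rule names are not reported here. On simulated data for SFN vs control (12662 genes), 37 of 67 genes changed by 0.5, 61 of 67 by 1 and 64 of 66 by 2 on the log2 scale were recovered, with 9 false calls among 171. Noise there was independent between genes, few genes were changed and no library was shifted as SFN replicate 2 was. These rates may therefore not hold for the real libraries. The 21 alternative fits varied filter, pseudocount, scaling, trend, weights, libraries, replicate block and GC content with length. Python 3.11.15 and matplotlib 3.10.9 made the tables and plots.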

Additional observations from a re-analysis of the deposited data

How the results depend on the processing

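KEAP1, SQSTM1 and NQO1 in both comparisons with control, and NFE2L2 and MAFF in SFN+5-FU vs control, were called in all 22 fits. Over the members' values under the 21 alternatives, SFN vs control gave 7 lost and 6 gained calls and 12 changes of sign, SFN+5-FU vs control 19, 2 and 5, and SFN+5-FU vs SFN 18 gained calls. No value called in the equally weighted fit of 9 libraries changed sign, and OSGIN1 in SFN vs control was called with the opposite sign with library weights (limma adjusted p = 0.0343) and without SFN replicate 2. A mean FPKM filter of 5, which tests fewer genes, called 3888 genes in SFN vs control and 4903 in SFN+5-FU vs control. In SFN+5-FU vs SFN, library weights called 7432 genes and 9 members, fitting only the 6 libraries compared called 0 genes, and leaving out 1 library at a time gave 0 to 6478 genes and 0 to 9 members, with the highest of each without SFN replicate 2. Members called in SFN+5-FU vs control ranged from 5 to 8 on leaving out 1 library, with 5 without control replicate 3 and without SFN+5-FU replicate 3. Over the same fits 7287 to 9461 of the 12662 tested genes were called in that comparison.

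Signs of SFN vs control turned for NFE2L1 (-0.056 with median-of-ratios scaling, -0.083 with quantile normalization, -0.058 with mitochondrial genes left out, -0.051 with library weights, -0.069 to 0.062 leaving out 1 library), for OSGIN1 (-0.014, -0.013 and, with weights, -0.291; -0.33 to 0.24 leaving out 1 library), for MAFF (-0.041 with weights; -0.078 to 0.461) and for NFE2L2 (-0.049 to 0.373). In SFN+5-FU vs control they turned for BACH1 (-0.037 with median-of-ratios scaling, -0.031 with mitochondrial genes left out, -0.068 with GC and length correction, -0.017 to 0.124 leaving out 1 library) and MAFG (0.064 with GC and length correction). The SFN minus control difference in the NFE2L2 to BACH1 ratio ran from -0.383 to 0.205 on leaving out 1 library. The cause was not tested. Members' transcripts hold 38.6 to 63.4% GC, and no depth is known from FPKM.

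Replicate numbers recur in the groups, and the labels do not state that equal numbers share a culture or day. Only 1 of 9 same-numbered pairs had deviations correlated above 0.1 (-0.143 to 0.107, against -0.247 to 0.182 for other pairs). With 3 libraries a group, and SFN replicate 2 apart from its group, these correlations cannot decide whether they do. With the replicate block, 4 members were called in SFN vs control and 8 in SFN+5-FU vs control. Of the 12662 tested genes, 3295 were then called higher and 2743 lower in SFN vs control. In SFN+5-FU vs control these counts were 4710 and 3441. In SFN+5-FU vs SFN 0 members were called, and the count of all genes called was 0 against 1 without the block.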
